A study of Mus musculus with 6 samples.

Results

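The simple epithelial keratins Krt7, Krt8, Krt18, Krt19, Krt20 and Krt23 were described in bulk RNA-seq of mouse liver. They were taken by symbol, and all 6 were found among the 16603 genes of the deposited count table. By their labels, 3 of the libraries in it were wild-type and 3 were Mdr2-knockout. Mdr2 is the hepatocyte transporter of phosphatidylcholine into bile, encoded by Abcb4, and its loss in mice leads to chronic injury of the bile ducts. Only liver and genotype are given by the labels; age, sex, strain, allele and pooling of animals are not. Whether the libraries of a group came from separate animals is not stated either, and p-values therefore reflect only the spread among these libraries, which may be technical. The columns carry the letters M and N; M begins the knockout titles, and N was read as wild-type by elimination.

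Each library held 17100393 to 18124467 counts. The level of Abcb4 goes against the labels, at 324 ± 48.1 CPM in the wild-type-labelled and 482 ± 42.4 CPM in the Mdr2-knockout-labelled libraries (SD, n = 3 each), so groups are named by their labels throughout. Which part of Abcb4 the allele removes is not given, so its count may not check the labels. CPM are counts scaled to the TMM-adjusted library size. Hepatocyte markers identified the tissue, with 14 of them summing to 146919 to 155749 CPM in the wild-type-labelled and 95626 to 102255 CPM in the Mdr2-knockout-labelled libraries.

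Keratins are the intermediate filament proteins of epithelial cells. They form filaments only as pairs of an acidic type I chain (Krt18, Krt19, Krt20 and Krt23 here) with a basic type II chain (Krt7 and Krt8 here). Hepatocytes are known to build their filaments from Krt8 and Krt18 alone. Bile duct cells (cholangiocytes) hold the same pair and add Krt7 and Krt19, which are therefore used to stain ducts and the ductular reaction, the growth of small duct-like strands in injured liver. Krt20 is best known from gut and bladder lining, and Krt23 as a keratin induced in injured liver and in ductular reactions; Krt7, Krt19, Krt20 and Krt23 are called duct-type here to set them apart from Krt8 and Krt18. In bulk tissue a change in the number of cells of a type and a change in RNA per cell cannot be told apart.

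The genes lie in 2 keratin regions of the mouse genome (GENCODE M21, GRCm38, the build that mm10 names). Krt8 lies on chromosome 15 from 101996698 to 102004482 on the minus strand and Krt18 on the same chromosome from 102028180 to 102032027 on the plus strand, so the partners of the hepatocyte pair are neighbours that point away from each other. The gap between them is 23697 bases, and no annotated gene lies wholly within it. Krt7 lies on chromosome 15 from 101411043 to 101430313. The other type I genes lie on chromosome 11, Krt20 from 99428403 to 99438150, Krt23 from 99477974 to 99493137 and Krt19 from 100140810 to 100148665. All 6 are protein-coding, with 6 exons in the longest coding transcript of Krt19, 7 in that of Krt18, 8 in those of Krt20 and Krt23, and 9 in those of Krt7 and Krt8.

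Sequence upstream of the start is shown for the neighbouring pair Krt8 and Krt18, which both rose, and for the duct-type genes Krt7 and Krt23. RefSeq's table (GRCm38.p6) matched 5 of the 6 members, and Krt19 was the member without an entry. The runs read 5′ to 3′ on the gene's strand, begin 250 bases before the RefSeq start and stop at the first exon of a coding transcript in GENCODE M21. The Krt7 run lies inside the annotated extent of its gene, which begins further upstream. Capitals mark matches to TATAAA (the TATA box), TGANTCA (the AP-1 motif), GGGCGG (the GC box) and CCAAT, searched on both strands.
Krt8 (chr15:102004483-102004592, minus strand): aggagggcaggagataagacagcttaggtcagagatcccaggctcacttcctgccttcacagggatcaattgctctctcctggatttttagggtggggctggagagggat
Krt18 (chr15:102027966-102028179, plus strand): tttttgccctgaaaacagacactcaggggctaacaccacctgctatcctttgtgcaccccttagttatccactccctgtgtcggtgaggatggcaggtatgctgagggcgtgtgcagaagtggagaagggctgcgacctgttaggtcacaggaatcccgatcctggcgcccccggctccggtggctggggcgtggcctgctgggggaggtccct
Krt7 (chr15:101412153-101412401, plus strand): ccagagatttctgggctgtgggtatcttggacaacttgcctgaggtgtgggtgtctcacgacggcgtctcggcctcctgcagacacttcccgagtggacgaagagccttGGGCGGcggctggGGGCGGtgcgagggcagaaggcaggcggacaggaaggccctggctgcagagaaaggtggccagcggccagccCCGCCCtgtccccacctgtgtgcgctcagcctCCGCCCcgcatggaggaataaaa
Krt23 (chr11:99493138-99493370, minus strand): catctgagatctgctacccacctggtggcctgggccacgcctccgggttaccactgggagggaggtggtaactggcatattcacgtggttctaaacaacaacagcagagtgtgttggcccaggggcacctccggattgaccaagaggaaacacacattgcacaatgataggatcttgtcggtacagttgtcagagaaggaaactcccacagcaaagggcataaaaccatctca

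In the full 250 bases, the GC box was found 4 times before Krt7 and not before the other 4 genes, and the TATA box once before Krt20, from 29 to 24 bases ahead of the start. No match to the other motifs was found before any of the 5. For Krt8 only the 110 bases printed lie ahead of the first exon, and the Krt7 window lies inside its annotated gene. The windows are therefore not alike in what they cover. Among 32841 promoter windows of that length, the GC box was found in 32.7%, the TATA box in 12.4%, the AP-1 motif in 6.75% and the last motif in 33.9%. None of the 5 matches overlapped another. These are matches of letters in a window and show no binding.

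Reads of near-identical copies could affect Krt8 more than the others. Of the 1909 words of 50 bases in its longest coding transcript, 514 also occur in the processed pseudogene Krt8-ps. A further 53 occur in Gm36026, a lincRNA whose annotated extent overlaps that of Krt8. Together these are 29.7% of the words. For Krt18 the share was 0.72% and for Krt7 0.223%, while Krt19, Krt20 and Krt23 shared no such word with another annotated transcript. The annotated extent of the gene Gm671 overlaps that of Krt7. How the authors' counting treated shared reads and strand is not given in the sources used here, so the level of Krt8 carries this uncertainty in both groups.

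Keratin levels were higher in the Mdr2-knockout-labelled libraries, and 3 of the 4 duct-type genes, Krt19, Krt7 and Krt23, had larger fold changes than the pair that hepatocytes hold. Krt19 and Krt7 rose 11.6-fold and 11.3-fold and Krt23 4.93-fold, against 2.26-fold for Krt8 and 1.99-fold for Krt18. All 5 members that passed the low-count filter rose by edgeR's quasi-likelihood test at an adjusted p under 0.05; over all 12612 tested genes, 20.9% rose at that threshold and 37.1% changed in either direction. The sixth, Krt20, was listed at 0 counts in each wild-type-labelled library and was too low to be tested. In each of the 5 tested members the groups did not overlap and the Mdr2-knockout-labelled group was higher, which held for 27.6% of all tested genes (51.3% did not overlap in either direction). Krt7, with 7, 4 and 9 reads in the wild-type-labelled libraries, passed the filter only through the Mdr2-knockout-labelled group. Both counts thus include a gene that the filter admitted on the side where it was high.

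Among the pair shared with hepatocytes, Krt8, the type II chain, stood at 185, 149 and 202 CPM in wild-type-labelled replicates 1, 2 and 3 and at 410, 466 and 334 CPM in Mdr2-knockout-labelled replicates 1, 2 and 3. The lowest Mdr2-knockout-labelled library was 1.65 times the highest wild-type-labelled library. Its log2 fold change was 1.18 (SE 0.15, edgeR adjusted p = 0.000572, n = 3 per group).

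Krt18, the type I partner of Krt8, stood at 124, 104 and 143 CPM in the wild-type-labelled and at 263, 285 and 192 CPM in the Mdr2-knockout-labelled libraries. Replicate 2 was the lowest and replicate 3 the highest of the wild-type-labelled libraries for both genes, and in the Mdr2-knockout-labelled libraries replicate 3 was the lowest and replicate 2 the highest for both. The gap between the groups was narrower for Krt18, with the lowest Mdr2-knockout-labelled library 1.34 times the highest wild-type-labelled library. Its log2 fold change was 0.99 (SE 0.17, edgeR adjusted p = 0.00421), the smallest of the 5.

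Of the duct-type genes, Krt19, a type I keratin and the usual stain for bile ducts, had 18, 12 and 13 reads (1.14, 0.766 and 0.820 CPM) in the wild-type-labelled and 197, 217 and 215 reads (9.77, 10.9 and 11.2 CPM) in the Mdr2-knockout-labelled libraries. Within the latter the level was tight, with a coefficient of variation of 7.04%, and the lowest of them was 8.54 times the highest wild-type-labelled library. The log2 fold change was 3.53 with SE 0.20 (edgeR adjusted p = 2.31e-06). By size it was number 123 of the 12612 tested genes.

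Krt7, the type II keratin of ducts, had 7, 4 and 9 reads (0.445, 0.255 and 0.568 CPM) in the wild-type-labelled and 103, 101 and 85 reads (5.11, 5.09 and 4.42 CPM) in the Mdr2-knockout-labelled libraries. The groups were again far apart, at 7.78 times between the nearest libraries. At 3.50 with SE 0.29 (edgeR adjusted p = 2.1e-05), its log2 fold change was number 126 by size. The wild-type-labelled values of Krt7 and Krt19 rest on 20 and 43 reads in all, so their folds are limited by counting error in that group.

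Krt23, the type I keratin known from injured liver, had 15, 11 and 11 reads (0.954, 0.702 and 0.694 CPM) in the wild-type-labelled and 71, 74 and 85 reads (3.52, 3.73 and 4.42 CPM) in the Mdr2-knockout-labelled libraries. Its log2 fold change was 2.30 (SE 0.26, edgeR adjusted p = 0.000132, n = 3 per group), between those of the other duct-type genes and those of Krt8 and Krt18. Mdr2-knockout-labelled replicate 3 was the highest library for Krt23 and Krt19 and the lowest of its group for Krt7, Krt8 and Krt18.

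Krt20, the type I keratin of gut and bladder lining, had 0 reads in each wild-type-labelled library and 2, 4 and 2 reads in the Mdr2-knockout-labelled libraries. Against a floor of 3 counts over the wild-type-labelled group it was at least 2.13-fold higher. That bound allows for counting error in the wild-type-labelled zeros and not in the 8 reads of the other group. In the fit without a filter on low counts it gave an edgeR p of 0.0277 and an adjusted p of 0.0784, which is above the threshold.

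**Figure D1:**
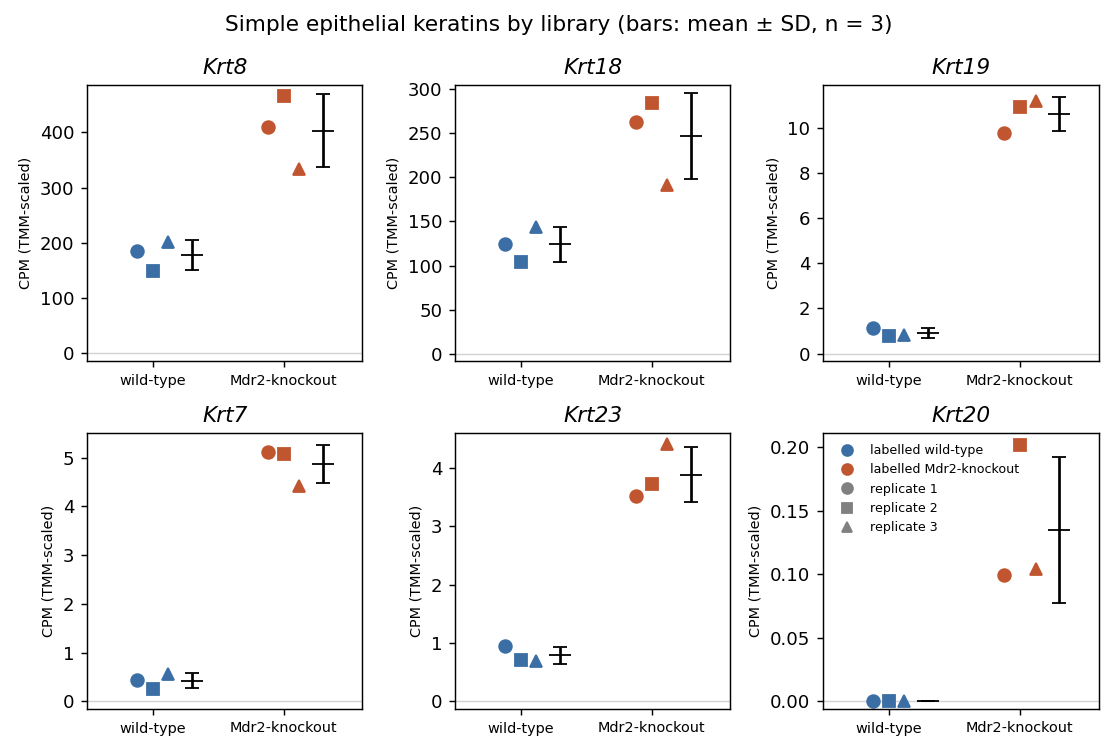
Each panel plots 1 keratin gene, with CPM on the vertical axis from 0 and the labelled group on the horizontal axis; symbols are libraries and bars are the mean ± SD of 3 libraries. For Krt19 the Mdr2-knockout-labelled libraries lie at 9.77 to 11.2 CPM and the wild-type-labelled libraries at 0.766 to 1.14 CPM, while Krt20 rests on 8 reads.

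Levels of different genes were compared only per length, as FPKM (reads scaled by gene length and library total). In the wild-type-labelled libraries Krt8 stood at 89.4 ± 14.4 FPKM and Krt18 at 79.9 ± 13.0 FPKM (SD, n = 3 here and below). Far under them came Krt19 at 0.582 ± 0.141, Krt23 at 0.458 ± 0.0941 and Krt7 at 0.241 ± 0.0907 FPKM, and Krt20 was listed at 0. The ranges of Krt8 and Krt18 overlapped, as did those of Krt19 and Krt23, whereas each Krt7 value lay under each Krt23 value. Within each of these libraries Krt8 was above Krt18, and Krt19 was above Krt23, the latter on few reads.

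In the Mdr2-knockout-labelled libraries the order of the lower genes changed. Krt8 stood at 247 ± 39.6 FPKM and Krt18 at 195 ± 37.8 FPKM, again with overlapping ranges and with Krt8 above Krt18 within each library. Krt19 followed at 8.30 ± 0.557 FPKM, apart from its neighbours, then Krt7 at 3.40 ± 0.270 and Krt23 at 2.78 ± 0.338 FPKM, whose ranges overlapped, and last Krt20 at 0.0764 ± 0.0321 FPKM. Krt7 thus moved from below Krt23 to a level not separated from it.

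Although Krt19, Krt7 and Krt23 had the larger folds, most of the added keratin RNA per length was Krt8 and Krt18. On the deposited scale of library totals, the 6 genes together went from 171 ± 27.5 to 456 ± 76.7 FPKM. Of that increase, Krt8 made up 55.1%, Krt18 40.2% and the 4 duct-type genes 4.64%. The share of the duct-type genes in the summed FPKM was 0.883%, 0.732% and 0.643% in wild-type-labelled replicates 1, 2 and 3 and 2.91%, 2.83% and 4.05% in Mdr2-knockout-labelled replicates 1, 2 and 3, so it was higher in each of the latter. Replicate 3, the highest, had the lowest Krt8 and Krt18 of its group.

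**Figure D2:**
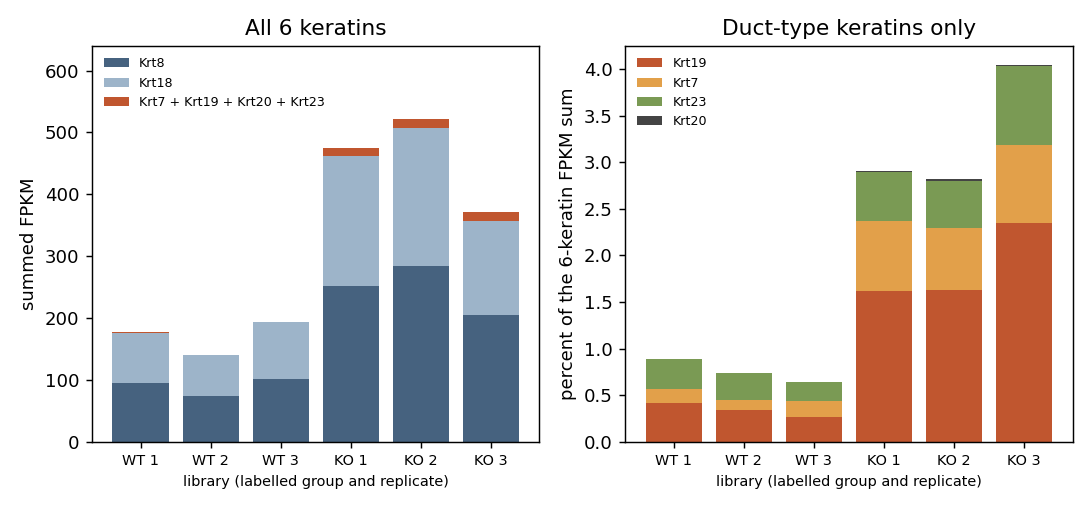
The left panel stacks the FPKM of Krt8, Krt18 and the 4 duct-type keratins for each library (WT, wild-type-labelled; KO, Mdr2-knockout-labelled), and the right panel shows the duct-type genes as a percent of that sum. The duct-type share runs from 0.643% to 0.883% in the wild-type-labelled and from 2.83% to 4.05% in the Mdr2-knockout-labelled libraries.

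Ratios of counts within a library compare the gene classes without any library scaling. The log2 ratio of Krt19 to Krt8 was -7.58 ± 0.30 in the wild-type-labelled and -5.23 ± 0.29 in the Mdr2-knockout-labelled libraries, a difference of 2.34 or 5.08-fold. For Krt7 to Krt8 the difference was 2.32 (4.98-fold), and for Krt23 to Krt8 it was 1.10 (2.14-fold). Against Krt18 the differences were 2.53 for Krt19, 2.50 for Krt7 and 1.29 for Krt23. In each of these 6 ratios the Mdr2-knockout-labelled libraries all lay above the wild-type-labelled libraries.

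The ratio of the 2 chains shared with hepatocytes, Krt8 to Krt18, differed little between the groups, though without overlap. Shared reads limit the level of Krt8, as given above. The log2 ratio of Krt8 to Krt18 was 0.577, 0.511 and 0.495 in the wild-type-labelled and 0.637, 0.711 and 0.797 in the Mdr2-knockout-labelled libraries, a difference of 0.19 with no overlap. Per length, Krt8 was 1.12 ± 0.0342 times Krt18 in the former and 1.27 ± 0.0711 times in the latter. Type II over type I chains, summed over the 6 genes as FPKM, went from 1.11 ± 0.0308 to 1.22 ± 0.0513. With 3 libraries against 3 the exact two-sided permutation test cannot go below p = 0.1, and each of the 9 ratios computed, 2 of them with Krt20, gave that smallest value (p = 0.1, Benjamini-Hochberg adjusted p = 0.1), so none could pass 0.05.

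**Figure D3:**
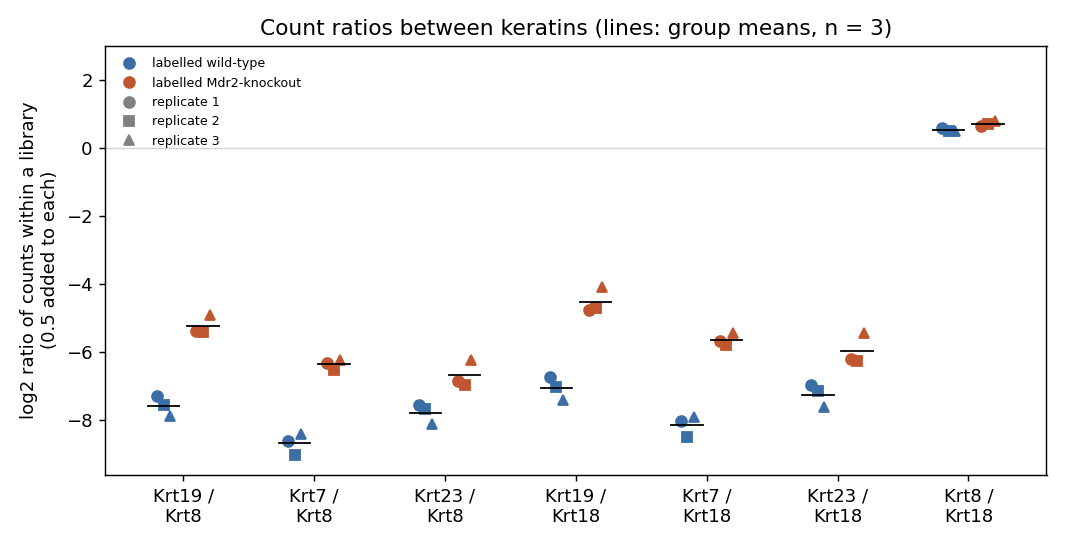
The vertical axis is the log2 ratio of counts of the 2 genes named on the horizontal axis, with symbols for libraries and lines for group means of 3 libraries. Krt19 to Krt8 moves from -7.58 to -5.23 between the wild-type-labelled and Mdr2-knockout-labelled groups, and Krt8 to Krt18 from 0.53 to 0.72.

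Cholangiocyte markers that are not keratins rose with these genes, and most hepatocyte markers did not. Of 18 tested cholangiocyte markers, 18 were higher in the Mdr2-knockout-labelled libraries, against 20.9% of all tested genes, with a median log2 fold change of 3.01 against 0.01 over all tested genes, and their summed level was 75.2 to 96.6 CPM in the wild-type-labelled and 463 to 504 CPM in the Mdr2-knockout-labelled libraries. Cldn4, Cldn7, Cftr and Sctr had at most 7 reads in any wild-type-labelled library. Like some others of the list, they passed the low-count filter only through the Mdr2-knockout-labelled group. This favours a higher call and a larger median. The list was also chosen with earlier results of these data known. The log2 fold changes of Krt19 and Krt7 lay inside the quartiles of that list, 2.28 to 3.88, and that of Krt23 at their lower edge. Those of Krt8 and Krt18 were exceeded by 16 of the 18. The smallest p-values of the list belonged to the surface protein Cd24a (3.95), the adhesion protein Epcam (3.41), the RNA-binding protein Bicc1 (2.58), the tight junction protein Cldn4 (5.76) and the epithelial transcription factor Ehf (3.67). Of 14 tested hepatocyte markers 10 were lower and 1 higher, with a median of -0.59, against 16.3% of all tested genes lower. With total-count scaling the split was 5 lower and 2 higher, and in the fits to FPKM 3 lower and 2 higher. Alb (-0.79), the thyroxine carrier Ttr (-0.83), the apolipoprotein Apoa2 (-0.74) and the cytochrome Cyp2e1 (-1.55) were among the lower genes, and the cytochrome Cyp3a11 (1.27) was the higher one. The part of these shifts in the keratin changes was not tested.

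**Figure D4:**
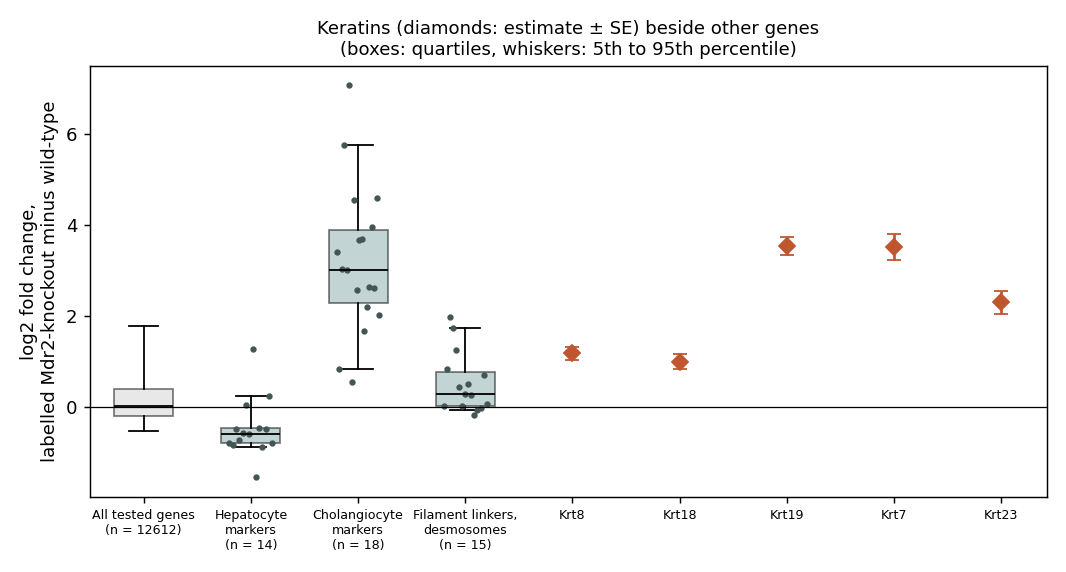
The vertical axis is the log2 fold change, Mdr2-knockout-labelled minus wild-type-labelled; boxes give the quartiles of all tested genes and of 3 gene lists (dots are their genes, whiskers the 5th to 95th percentile), and diamonds give 5 keratins with their SE. Krt19 at 3.53 and Krt7 at 3.50 sit within the cholangiocyte box, and Krt8 at 1.18 and Krt18 at 0.99 under it.

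Set against Epcam, which duct epithelium carries and hepatocytes lack, the groups overlapped for Krt19 and Krt7 and did not for Krt23. The count ratio of Krt19 to Epcam was 0.836 ± 0.278 in the wild-type-labelled and 0.887 ± 0.107 in the Mdr2-knockout-labelled libraries, with overlapping groups. That of Krt7 to Epcam was 0.397 ± 0.189 and 0.405 ± 0.0247, also overlapping. The wild-type-labelled ratios rest on 16, 21 and 16 Epcam reads, so overlap does not show that either ratio stayed the same. For Krt23 to Epcam it was 0.716 ± 0.208 and 0.325 ± 0.0539, lower in each Mdr2-knockout-labelled library. Krt23 to Krt19 fell by 1.25 on the log2 scale with no overlap, while the groups overlapped for Krt19 to Krt7.

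Set against albumin (Alb), the main secreted protein of hepatocytes, the hepatocyte pair was higher. Krt8 reads came to 0.211% ± 0.0421 of Alb reads in the wild-type-labelled and 0.814% ± 0.128 in the Mdr2-knockout-labelled libraries, and Krt18 reads to 0.146% ± 0.0302 and 0.499% ± 0.0963, with no overlap in either. Alb itself fell by 0.79 on the log2 scale, and did not pass in the fits to FPKM (limma adjusted p = 0.103 and 0.161). These 7 ratios were chosen after the values were seen; their exact two-sided permutation p-values were 0.1 for the 4 whose groups did not overlap (adjusted p = 0.175) and 0.8 to 1 for the other 3 (adjusted p = 1).

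Other epithelia that hold simple keratins were checked by their markers. Of 8 mesothelial markers, which belong to the lining of the liver surface, 2 could be tested and both were higher: the surface protein Msln rose from 0.233 ± 0.0379 to 1.68 ± 0.547 CPM (log2 fold change 2.82) and Gpm6a had a log2 fold change of 1.05, whose call was lost without wild-type-labelled replicate 1 or 3 or Mdr2-knockout-labelled replicate 3 (edgeR adjusted p = 0.0522 to 0.0771). The other mesothelial markers fell below the low-count filter. Msln, with 4, 4 and 3 reads in the wild-type-labelled libraries, passed it only through the Mdr2-knockout-labelled group. Its higher call was therefore favoured by the filter. Over all tested genes, 20.9% were higher. The whole mesothelial list summed to 1.96 to 2.3 CPM in the wild-type-labelled and 4.53 to 6.45 CPM in the Mdr2-knockout-labelled libraries. Of 9 gut markers in the table, Guca2a was at 0 in each library and Agr2, Muc2, Cdh17 and Reg3g had at most 8 reads in any. Vil1 (3.57) and Tff3 (2.26), which duct cells can also make, were higher. Vil1, with 1, 3 and 4 reads in the wild-type-labelled libraries, passed the filter only through the Mdr2-knockout-labelled group, which favoured a higher call. Fabp2, a fatty acid binding protein, and Lgals4, a galectin, did not pass, at 26.3 ± 9.84 and 13.6 ± 3.96 CPM in the wild-type-labelled and 17.9 ± 5.28 and 10.3 ± 6.53 CPM in the Mdr2-knockout-labelled libraries. Tff3 lost its call when any 1 library other than wild-type-labelled replicate 1 was left out (edgeR adjusted p = 0.0662 to 0.113), and without a filter on low counts (edgeR adjusted p = 0.0591). The list summed to 38.7 to 56.1 and 62.7 to 68.2 CPM. The 5 pancreatic acinar markers in the table summed to at most 0.255 CPM. The part of mesothelium or gut-type cells in the keratin changes was not tested.

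Of the 13 further keratins in the table, 4 had no read in any library (Krt1, Krt4, Krt16 and Krt78), and the 6 members held 99.4% to 99.8% of all keratin reads in each library. Krt80, a type II keratin, rose from 2, 1 and 1 reads to 13, 16 and 20 reads. Its log2 fold change was 3.19 with SE 0.56, and its edgeR adjusted p was 0.00179. Krt80 passed the low-count filter only through the Mdr2-knockout-labelled group, which favoured a higher call. Krt17, a type I keratin of basal and injured skin, had 0 reads in the wild-type-labelled and 7, 14 and 4 in the Mdr2-knockout-labelled libraries, at least 6.64-fold higher against the same floor, with the same limit; the low-count filter left it out, and without that filter its edgeR adjusted p was 0.0071. Krt10, of upper skin layers, had 22, 24 and 10 against 16, 21 and 9 reads (-0.61, edgeR adjusted p = 0.286, n = 3 per group). Among markers of stratified epithelium, Ly6d (4.21) and Sprr1a (8.31) were higher and Lor lower (-1.57). Sprr1a had 0 reads in the wild-type-labelled group, so the size of its fold change depends on the prior count. Ly6d and Sprr1a passed the low-count filter only through the Mdr2-knockout-labelled group, which favoured a higher call. Lor passed it only through the wild-type-labelled group, which favoured a lower call. Lor lost its call without replicate 1 or 3 of either group (edgeR adjusted p = 0.057 to 0.1), and with total-count scaling (edgeR adjusted p = 0.0519), and was not tested with a filter at a mean of 1 CPM. Trp63, the factor that defines basal cells, had at most 3 reads in a library.

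Part of the linker and desmosome genes, whose products bind or anchor intermediate filaments, rose as well. Of 15 tested linker and desmosome genes, 7 were higher and 0 lower, with a median log2 fold change of 0.28, against 20.9% of all tested genes higher; 12 were higher with total-count scaling, where 47.1% of all tested genes were, and 13 in the fits to FPKM, where 45.4% were. The plakin genes Eppk1 (1.26, SE 0.09), Dsp (0.82), Evpl (1.72) and Dst (0.44) and the desmosomal plaque gene Pkp2 (0.28) were among the 7. They were called in each fit that left out 1 library, and such fits called 5 to 7 of the list. Evpl, with 5, 6 and 5 reads in the wild-type-labelled libraries, passed the low-count filter only through the Mdr2-knockout-labelled group. The 7 thus include a gene whose higher call was favoured by the filter. Plec, the widely expressed linker, had a log2 fold change of 0.01 (edgeR adjusted p = 0.926) and Jup of 0.02.

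Of 7 tested intermediate filament genes outside the keratins, 4 were higher and 0 lower, against 20.9% of all tested genes higher. With total-count scaling 6 were higher, where 47.1% of all tested genes were, and in the fits to FPKM also 6, where 45.4% were. The 4 were Vim, the filament of mesenchymal cells, which rose from 238, 195 and 278 to 792, 697 and 906 reads (log2 fold change 1.43, SE 0.14), Des (0.61) and Synm (1.39) of muscle and stellate cells, and the nuclear lamin Lmna (0.29). Synm, with 5, 12 and 9 reads in the wild-type-labelled libraries, passed the low-count filter only through the Mdr2-knockout-labelled group. The 4 thus include a gene whose higher call was favoured by the filter. Only 2 of the 4 were called without wild-type-labelled replicate 1 or without Mdr2-knockout-labelled replicate 2 or 3. Des was lost without wild-type-labelled replicate 1 or 2 or Mdr2-knockout-labelled replicate 3 (edgeR adjusted p = 0.0504 to 0.0657), Synm without wild-type-labelled replicate 1 or 3 or Mdr2-knockout-labelled replicate 2 or 3 (edgeR adjusted p = 0.0647 to 0.116) and with limma-voom (adjusted p = 0.0611), and Lmna without replicate 2 of either group (edgeR adjusted p = 0.0518 to 0.054). Vim was called in each of these fits.

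Genes linked to keratin aggregates and protein stress showed no common direction. Of 13 tested, 2 were higher (Tgm2, which crosslinks keratins, at 0.68, and the chaperone Cryab at 0.74), 2 were lower (Ubb at -0.41 and Hspa8 at -0.45) and 9 did not pass, against 20.9% of all tested genes higher and 16.3% lower. Under total-count scaling 6 were higher and 0 lower, where 47.1% of all tested genes were higher, and the fits to FPKM gave the same counts, where 45.4% were. In the list 4 were lower with RLE scaling, with DESeq2 and without wild-type-labelled replicate 1. Cryab lost its call when any 1 library other than Mdr2-knockout-labelled replicate 2 was left out (edgeR adjusted p = 0.0527 to 0.165), and with limma-voom (adjusted p = 0.0569). Sqstm1, which encodes p62, a protein of keratin inclusions, had a log2 fold change of 0.10 (edgeR adjusted p = 0.387).

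Likeness of profiles was measured as the root mean square difference in log2 CPM, each gene centred on its mean over the 6 libraries. By this measure Krt18 was number 5 of all other tested genes for Krt8, at 0.108, behind Tmem51 at 0.0917, Lmo2 at 0.0971 and Fuca2 at 0.102 among others. For Krt18, Krt8 was number 11, and Gm42226, Tmem43 and Klhdc8b were nearest at 0.0619 to 0.0658. Krt7 was number 20 for Krt19 and Krt19 number 15 for Krt7, at 0.288. Nearest to Krt19 were Lrrc9, Zfp469 and Ddr1, nearest to Krt7 Clic6, Col1a1 and Capn11, and nearest to Krt23 Nfatc2, Bspry and the keratin Krt80. A prior count of 2 draws low genes together on this scale, so genes with few reads such as Lrrc9 can match a gene with another fold change.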

How the data were processed

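Whole-number read counts per gene symbol and FPKM values for the same 6 liver libraries were deposited by the authors; the counts are not normalized and the FPKM are scaled by gene length and library total. Within each gene FPKM followed the counts (within 5% for 100% of genes with reads), so they are the same reads under another scaling. Bowtie2, HISAT2, SAMtools, StringTie, Cufflinks, HTSeq, DESeq, Trimmomatic and the build mm10 are named per the submitters' processing notes. Their roles, versions and strand setting, and the annotation, were not given in the sources used here. No column was left without a sample.

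Counts were tested with edgeR 4.0.16 (R 4.3.3): filterByExpr (minimum count 10, minimum total count 15), TMM factors, robust quasi-likelihood fit with group as the only term, and Benjamini-Hochberg adjustment over 12612 genes. The filter keeps a gene that reaches its minimum in as many libraries as 1 group holds. Genes low in the wild-type-labelled group, such as Krt7, Krt80, Cldn4, Cftr, Msln, Vil1, Evpl, Synm, Ly6d and Sprr1a, entered only through the Mdr2-knockout-labelled group. For them a higher call was favoured. Each SE is the absolute log2 fold change divided by the root of F. No pair of libraries in a group agreed within counting noise (chi-square per degree of freedom 16.0 to 35.3), so none was treated as a repeat deposit; this does not show that they are separate animals. The pipeline was tested on simulated counts. Count ratios had 0.5 added to each count and were tested by exact permutation (scipy 1.17.1). Each library's floor of 3 counts equals 0.149 to 0.192 CPM. Alternatives were other scalings, DESeq2 1.42.0, limma 3.58.1 (voom, and trend on log2 FPKM), other filters, a replicate block and leaving out each library. The members and lists were chosen with earlier results of these data known. Genes named were the 6 members, up to 5 genes with the smallest p of a list, defining markers at or near 0, and other keratins with at least 10 reads in all, and the 3 genes nearest each member; further ones (Plec, Jup, Sqstm1, Trp63, the low gut markers, and Epcam and Alb as references for ratios) were chosen after their values were seen. Promoter sequences are from RefSeq.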

Additional observations from a re-analysis of the deposited data

How the results depend on the processing

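All 182 values recomputed under an alternative were classed as the same as the 16 results they belong to. Log2 fold changes kept their direction and their side of the threshold, and counts stayed within 1.5 times. For ratios only the direction was compared, and it was kept. The gene lists were not among the 16 results. The 5 tested keratins rose in each of the 16 alternative fits. The log2 fold change ran from 1.05 to 1.47 for Krt8, 0.87 to 1.29 for Krt18, 2.56 to 3.83 for Krt19, 1.83 to 3.79 for Krt7 and 1.37 to 2.59 for Krt23, each highest with total-count scaling, which moved the median over all tested genes from 0.01 to 0.30. The lowest values of Krt19, Krt7 and Krt23 came from log2(FPKM + 1), where the added 1 exceeds their labelled wild-type FPKM. The highest adjusted p was 0.0356, for Krt18 with a replicate block; leaving out 1 library gave Krt18 0.87 to 1.14. Genes called over the whole table numbered 3541 to 6273, and the share of calls that were higher was 56.2% with TMM, 67.2% with upper-quartile scaling, 94.7% with total-count scaling and 94.6% in the fits to FPKM. Ratios could pass no threshold in 3 libraries against 3 under any setting. The ratios of Krt20 to Krt8 and Krt18 depend on the added count: the difference was 1.10 and 1.29 with 0.5 added and 0.33 and 0.52 with 1 added. The replicate numbers gave no pairing: same-numbered libraries' deviations from their group means correlated at 0.084, 0.045 and -0.076 across genes, not every library was nearest its own number, and the replicate block fit called 4568 genes and all 5 tested keratins (Krt8 1.17, Krt18 0.99, Krt19 3.53, Krt7 3.50, Krt23 2.30). With the block the list genes Tff3, Cryab and Lor were no longer called (edgeR adjusted p = 0.119, 0.0740 and 0.0514). Depth limits Krt20, Krt17 and the labelled wild-type levels of Krt7, Krt19 and Krt23 most, since they rest on 0 to 43 reads.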
